A study of Homo sapiens with 36 samples.

Results

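NRF2, its inhibitor KEAP1, the small MAF proteins and a few of their direct targets were followed through 2 human cell lines exposed to cigarette smoke extract (CSE). The set held every probe of the non-normalized bead table whose target name was NFE2L2 (the gene of NRF2), KEAP1, MAFG, MAFF, MAFK, NQO1, OSGIN1 or SQSTM1. These 8 genes had 17 of the 47323 probes. Of them, 12 probes of 7 genes were detected widely enough to be tested, out of 22612 such probes in all.

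Total RNA was measured on 36 Illumina whole-genome bead arrays, 1 sample per array. Exposed DLD-1 cells (20% CSE, 6 arrays) were compared with DLD-1 cells without CSE (12 arrays), and exposed Jurkat cells (20% CSE, 6 arrays) with Jurkat cells without CSE (12 arrays). The DLD-1 line derives from a human colorectal carcinoma and is epithelial, while Jurkat cells are leukaemic T lymphocytes, so each line stands for 1 tumour. Exposure lasted between 2 and 6 h, with no time stated for an individual sample and none separating cultures from repeat arrays, so the p-values may measure technical spread only.

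The arrays lay on 3 BeadChips, the glass carriers that each hold 12 arrays, numbered 3, 4 and 5 here after the sample names. BeadChips 3, 4 and 5 held 2, 3 and 1 of the exposed DLD-1 arrays and 3, 4 and 5 of the DLD-1 control arrays. They held 3, 1 and 2 of the exposed Jurkat arrays and 4 Jurkat control arrays each. Between 16012 and 19131 probes were detected per array. A marker was counted in a group where it was detected on at least 3 of 6 exposed or 6 of 12 control arrays. In DLD-1, 11 of 13 markers of intestinal epithelium were counted with and without CSE, VIL1 and CDX1 being the exceptions, and 3 (with CSE) and 2 (without) of 12 T cell markers. In Jurkat, 11 of 12 T cell markers were counted with and without CSE, the exception being CD28, and 5 (with CSE) and 4 (without) of 13 epithelial markers. Of 7 monocyte or B cell markers, 3 were counted in exposed DLD-1, 2 in control DLD-1 and 3 in each Jurkat group. None of 6 fibroblast markers was counted in any group, although 1 was detected on at least 6 of the 36 arrays. For Jurkat control replicate 7, 1 label field gives DLD-1 and the other labels give Jurkat. It was kept as Jurkat. The mean normalized log2 level of the tested T cell markers lay between 8.66 and 9.45 on all control Jurkat arrays, this one included. On the control DLD-1 arrays it lay between 4.44 and 4.70.

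NRF2 is a transcription factor that cells hold ready against oxidants and electrophiles. KEAP1 binds it and passes it to a CUL3 ubiquitin ligase for degradation. When reactive compounds modify the cysteines of KEAP1, NRF2 escapes, pairs with a small MAF protein (MAFF, MAFG or MAFK) and binds antioxidant response elements in the DNA of its target genes. NQO1 encodes a quinone reductase, OSGIN1 a protein induced by oxidative stress that restrains cell growth, and SQSTM1 the autophagy receptor p62, which can itself sequester KEAP1. NRF2 is controlled mainly through protein stability, and arrays measure RNA only.

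The DNA around the start sites of 3 genes whose probes rose with CSE in DLD-1 is printed first, to show where a binding element was looked for: OSGIN1 and MAFG had the largest rises, and for MAFF the window with a match is shown. RefSeq windows of 300 bases (GRCh38.p14), 250 before and 50 after each start, were matched for 7 of the 8 genes and numbered 12. Each is given 5′ to 3′ on the strand of its gene, and capitals mark a match to one of the motifs named next.
OSGIN1, chr16:83952990-83953289, plus strand: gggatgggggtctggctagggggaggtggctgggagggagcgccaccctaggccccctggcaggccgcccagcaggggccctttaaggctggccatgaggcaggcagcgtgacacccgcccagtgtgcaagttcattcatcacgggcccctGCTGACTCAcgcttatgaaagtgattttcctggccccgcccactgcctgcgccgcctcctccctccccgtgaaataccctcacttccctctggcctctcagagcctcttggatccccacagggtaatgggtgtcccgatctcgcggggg
MAFG, chr17:81927686-81927985, minus strand: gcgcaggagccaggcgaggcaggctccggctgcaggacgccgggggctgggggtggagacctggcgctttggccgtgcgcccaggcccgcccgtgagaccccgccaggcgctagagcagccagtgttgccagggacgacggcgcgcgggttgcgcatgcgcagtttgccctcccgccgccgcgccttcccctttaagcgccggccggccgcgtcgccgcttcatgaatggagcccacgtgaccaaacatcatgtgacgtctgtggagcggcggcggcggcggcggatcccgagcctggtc
MAFF, chr22:38201744-38202043, plus strand: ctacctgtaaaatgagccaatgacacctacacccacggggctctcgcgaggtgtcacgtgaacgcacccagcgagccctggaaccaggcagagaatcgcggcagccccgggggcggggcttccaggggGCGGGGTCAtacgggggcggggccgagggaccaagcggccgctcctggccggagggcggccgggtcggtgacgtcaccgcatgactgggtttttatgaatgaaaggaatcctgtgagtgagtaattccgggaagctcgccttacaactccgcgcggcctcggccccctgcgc
The core of the antioxidant response element, TGACNNNGC, was searched on both strands. It occurred in 2 of the 12 windows, against 13.3% of 35116 windows of all genes. The MAFF window above held it on the reverse strand, its first base 122 bases before the start, with the letters GCGGGGTCA. A KEAP1 window (chr19:10502722-10503021, minus strand) held it at 54 bases before the start as TGACACGGC and at 31 bases as GCTTAGTCA on the reverse strand. The stricter TGACTCAGC occurred in none of the 12 windows and in 0.561% of all windows. OSGIN1 held a neighbouring form, TGANTCAGC, read on the reverse strand as GCTGACTCA, 99 bases before its start. That motif was added after this window had been read, overlaps the stricter one, and occurred in 1.36% of all windows. MAFG held none of the 3 motifs here. Neither did the other MAFF window (chr22:38202770-38203069, plus strand) or the 2 windows of NFE2L2, which also rose in DLD-1.

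Levels are normalized log2 bead intensities, and where a gene has several tested probes these are lettered by falling mean. A probe counts as detected on an array where its detection p-value is under 0.05. A probe reports a level only relative to itself on other arrays, so no order between genes is given. NFE2L2, KEAP1, NQO1 and SQSTM1 stood in the same broad order by mean: exposed DLD-1, control DLD-1, then both Jurkat groups. MAFG differed: exposed DLD-1 stood highest on all 3 probes, and the other 3 groups lay close together. OSGIN1 had the same order as NFE2L2, and on MAFF probe A the exposed Jurkat mean (6.42) was the lowest of the 4. The only MAFK probe was detected on none of the 36 arrays, so MAFK has no measured level in either line. A further KEAP1 probe and a further OSGIN1 probe were also detected on no array, and 2 further MAFF probes on 2 arrays and 1 array.

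**Figure D1:**
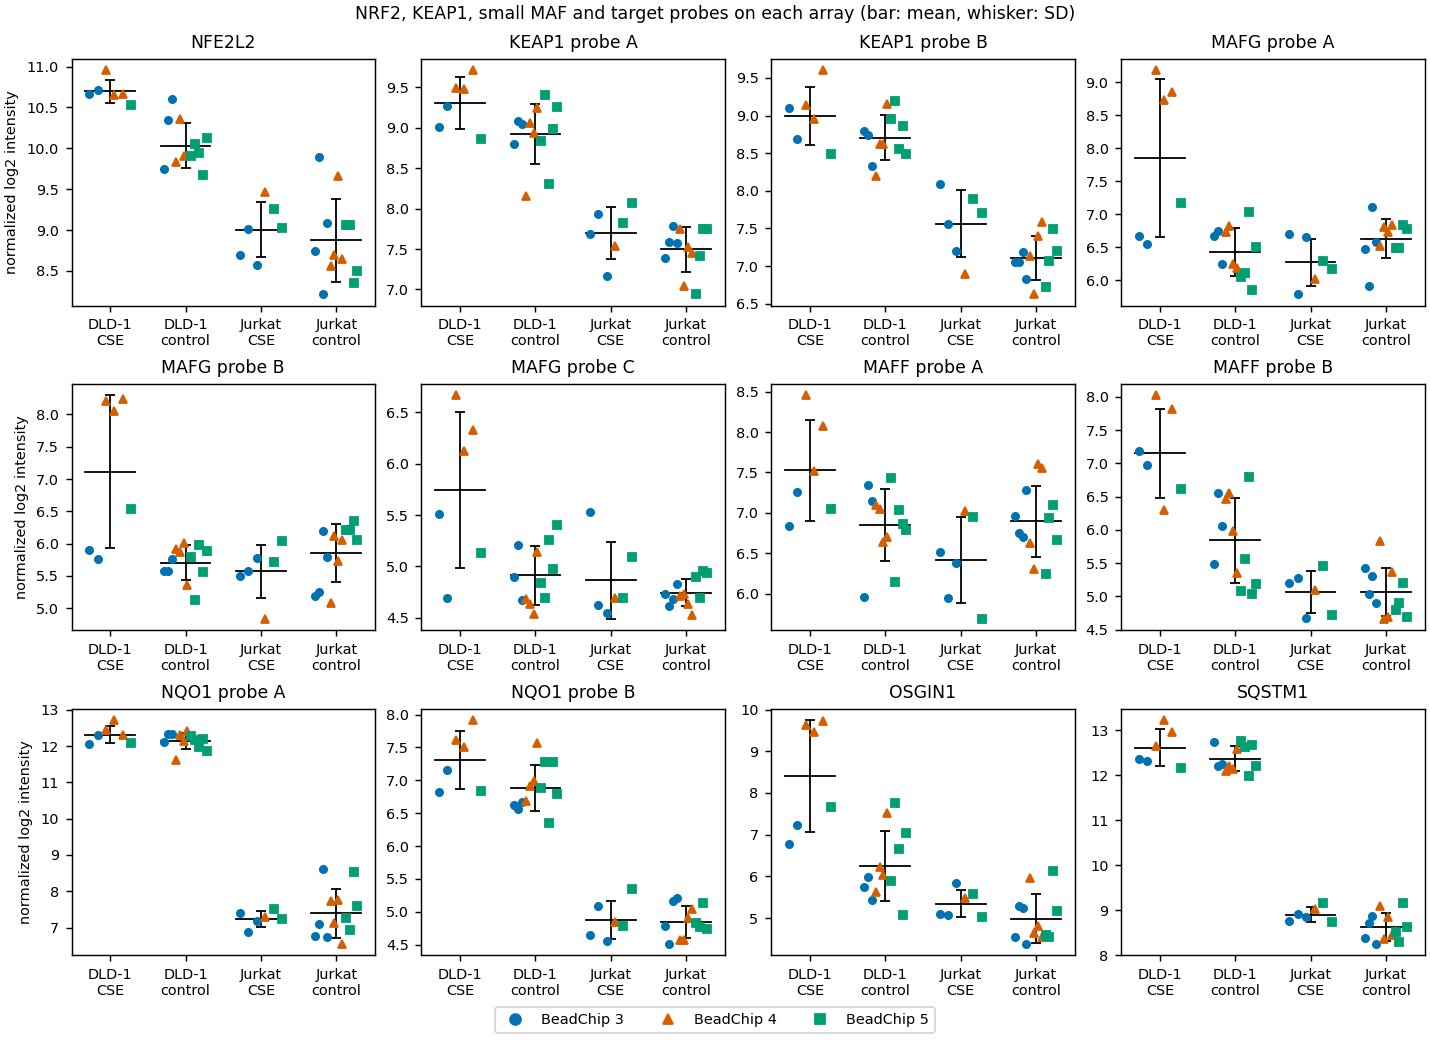
Normalized log2 intensity (vertical axis, scaled for each panel) of the 12 tested probes in exposed and control DLD-1 and Jurkat cells. Each symbol is an array, its colour and shape giving the BeadChip, with a bar at the group mean and a whisker of 1 SD; for OSGIN1 and all MAFG probes the 3 exposed DLD-1 arrays of BeadChip 4 stand highest.

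In DLD-1 cells exposed to CSE, the RNA of OSGIN1, MAFG, MAFF (1 of its 2 tested probes) and NFE2L2 was higher than in controls. No change in KEAP1, NQO1 or SQSTM1 passed the test. By limma with Benjamini-Hochberg adjustment over all 22612 probes at 0.05, 6 of the 12 probes were higher with CSE and none lower. In the same comparison 1.7% of all tested probes were higher and 2.01% lower (3.71% in all). The median change over the 12 probes was 0.67 on the log2 scale, against -0.0035 over all tested probes. Exact two-sided permutation tests over the DLD-1 arrays, unadjusted, were also made for the probes not called. They gave p = 0.0152 for MAFF probe A, 0.0405 for NQO1 probe B and 0.0477 for KEAP1 probe A. For KEAP1 probe B, SQSTM1 and NQO1 probe A they gave p = 0.104, 0.158 and 0.166.

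NFE2L2, the gene of NRF2 itself, had a lowest, median and highest log2 level of 10.53, 10.66 and 10.95 in exposed DLD-1 cells and 9.68, 9.93 and 10.60 in control DLD-1 cells. Of the 6 exposed arrays, 5 lay above all 12 controls. The rise was 0.66 on the log2 scale (SE 0.18, 1.58-fold, adjusted p = 0.0233). An exact two-sided permutation test over the 18 DLD-1 arrays gave an unadjusted p = 0.000108. The call was lost without exposed replicate 3 (adjusted p = 0.0926) or without exposed replicate 5 (adjusted p = 0.0554).

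KEAP1, which marks NRF2 for degradation, was detected on all 36 arrays by 2 probes. Probe A had 8.86, 9.37 and 9.71 (lowest, median, highest) in exposed DLD-1 cells and 8.16, 9.02 and 9.40 in control DLD-1 cells. The groups overlapped on both probes. The log2 differences were 0.38 for probe A (SE 0.16, adjusted p = 0.206) and 0.29 for probe B (SE 0.17, adjusted p = 0.423).

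MAFG, a small MAF partner of NRF2, responded unevenly across the exposed arrays. Probe A had 6.55, 7.94 and 9.18 (lowest, median, highest) in exposed DLD-1 cells and 5.85, 6.37 and 7.04 in control DLD-1 cells. Of the 6 exposed arrays, 4 lay above every control, while the lower 2 fell inside the control range. The rise was 1.42 (SE 0.26, 2.68-fold, adjusted p = 0.000651), and probe B gave 1.41 (SE 0.27, adjusted p = 0.000993). Probe C, which was detected on 5 of 6 exposed and 4 of 12 control DLD-1 arrays, gave 0.83 (SE 0.18, adjusted p = 0.00501). Without exposed replicate 3 the adjusted p of probe C was 0.0514.

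MAFF, another small MAF, was read by 2 tested probes whose calls differed. Probe B had 6.30, 7.08 and 8.03 (lowest, median, highest) in exposed DLD-1 cells and 5.04, 5.78 and 6.80 in control DLD-1 cells. It rose by 1.31 (SE 0.24, 2.48-fold, adjusted p = 0.000719), with 4 of 6 exposed arrays above all controls. Probe A had 6.83, 7.39 and 8.46 in exposed DLD-1 cells and 5.96, 6.95 and 7.43 in control DLD-1 cells, and its difference of 0.68 (SE 0.23) did not pass (adjusted p = 0.0896).

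OSGIN1, the oxidative stress induced growth inhibitor, had the largest change among the 12 probes. Its log2 level was 6.77, 8.55 and 9.72 (lowest, median, highest) in exposed DLD-1 cells and 5.08, 6.01 and 7.76 in control DLD-1 cells. As deposited, before any correction, its bead intensity ran from 207 to 948 in exposed DLD-1 cells and from 113 to 275 in control DLD-1 cells. The upper 3 exposed arrays lay above all controls and the lower 3 inside the control range. The rise was 2.16 (SE 0.37, 4.46-fold, adjusted p = 0.000254). A probe that the table lists under OKL38, an older name of OSGIN1, was not among the 17 and rose by 2.28 (adjusted p = 0.000817).

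NQO1, the quinone reductase often used as a readout of NRF2, was already bright without CSE on probe A. It had 12.07, 12.30 and 12.71 (lowest, median, highest) in exposed DLD-1 cells and 11.63, 12.19 and 12.41 in control DLD-1 cells. The groups overlapped, and the difference was 0.17 (SE 0.21, adjusted p = 0.797). The dimmer probe B gave 0.43 (SE 0.16, adjusted p = 0.141).

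SQSTM1, the p62 gene, was also bright. It had 12.15, 12.51 and 13.22 (lowest, median, highest) in exposed DLD-1 cells and 11.98, 12.22 and 12.75 in control DLD-1 cells. The groups overlapped, with a difference of 0.24 (SE 0.15, adjusted p = 0.471).

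**Figure D2:**
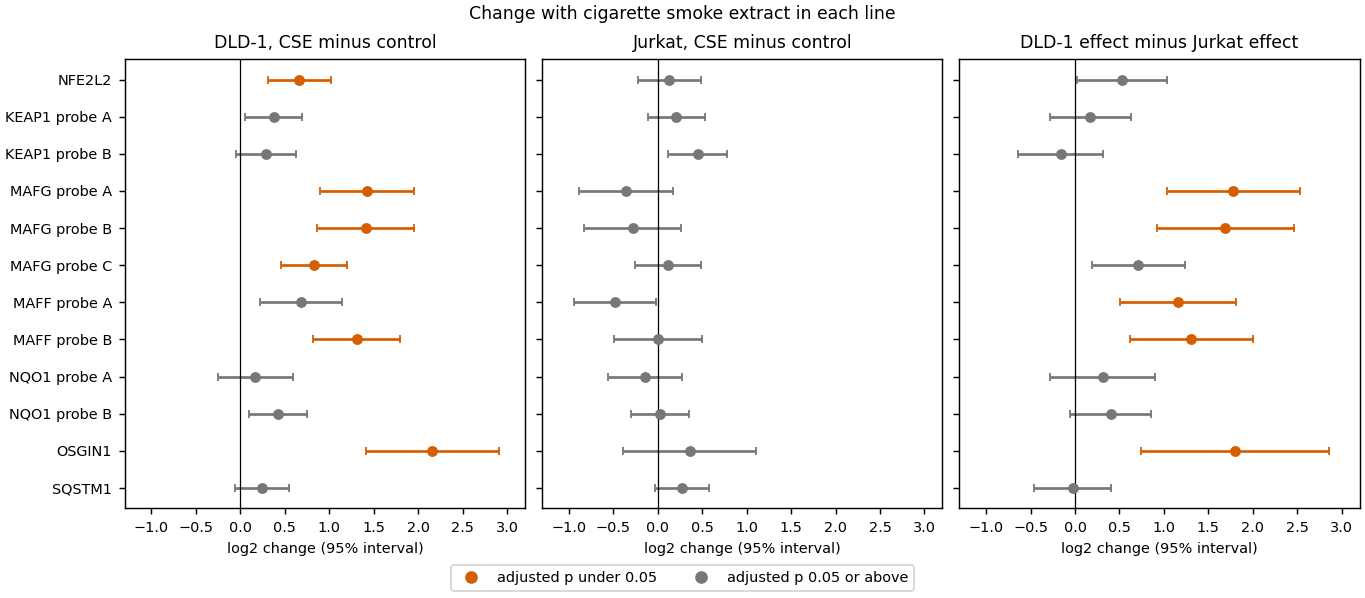
Log2 change with CSE (horizontal axis, point with 95% interval from limma) of the 12 tested probes in DLD-1, in Jurkat, and as the DLD-1 effect minus the Jurkat effect. Orange marks an adjusted p under 0.05, which 6 probes reached in DLD-1, 0 in Jurkat and 5 for the difference.

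The DLD-1 rise of MAFG was not even across the BeadChips on probes A and B. That of OSGIN1 was largest on BeadChip 4, but its gap between BeadChips did not pass. MAFG probe A had 6.67 and 6.55 on the exposed arrays of BeadChip 3, 9.18, 8.72 and 8.84 on those of BeadChip 4, and 7.16 on that of BeadChip 5. Its control DLD-1 arrays averaged 6.55, 6.50 and 6.31 on the same BeadChips. The exposed arrays of BeadChip 3 thus sat at the level of their controls, and those of BeadChip 4 far above.

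A model with a mean for each group on each BeadChip was added after the data had been seen, so its p-values are given as a description. By this model the MAFG probe A change was 0.05 on BeadChip 3, 2.42 on BeadChip 4 and 0.86 on BeadChip 5. For MAFG probe B it was 0.20, 2.37 and 0.86. The difference between BeadChips 4 and 3 was 2.37 for probe A (SE 0.40, adjusted p = 0.00366) and 2.18 for probe B (SE 0.36, adjusted p = 0.00356), and both passed. Among all tested probes, 0.155% were higher and 0.119% lower on BeadChip 4 in that test. MAFG probe C pointed the same way without passing (1.45, adjusted p = 0.0566).

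OSGIN1 had 6.77 and 7.22 on the exposed arrays of BeadChip 3, 9.63, 9.45 and 9.72 on those of BeadChip 4, and 7.65 on that of BeadChip 5. Its control DLD-1 arrays averaged 5.72, 6.35 and 6.49. The changes were 1.28 (adjusted p = 0.484), 3.25 (adjusted p = 2.79e-05) and 1.16 on BeadChips 3, 4 and 5, and only the change on BeadChip 4 passed. On BeadChip 5 the exposed array lay inside the range of that BeadChip's controls (5.08 to 7.76). The gap between BeadChips 4 and 3 did not pass (1.97, SE 0.71, adjusted p = 0.324). The OKL38 probe gave 1.06, 3.24 and 1.71, and its gap between BeadChips 4 and 3 did not pass either (2.18, adjusted p = 0.515).

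NFE2L2 and MAFF probe B had changes of closer size on the 3 BeadChips. NFE2L2 differed from controls by 0.46, 0.75 and 0.59, and MAFF probe B by 1.05, 1.29 and 1.07. The difference between BeadChips 4 and 3 was 0.29 for NFE2L2 (SE 0.43, adjusted p = 0.938) and 0.24 for MAFF probe B (SE 0.60, adjusted p = 0.972). SQSTM1 was -0.05, 0.69 and -0.29, KEAP1 probe A 0.16, 0.71 and -0.10, and NQO1 probe A -0.07, 0.36 and -0.02, none of them past the threshold on any BeadChip.

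In this fit 6 of the 12 probes passed on BeadChip 4 (3 of MAFG, 2 of MAFF and OSGIN1), against 2.24% of all tested probes called higher there and 2.13% lower. A fit to the arrays of BeadChip 4 alone called 4 of the 12, leaving out MAFF probe B (adjusted p = 0.102) and MAFF probe A. None passed on BeadChip 3, where 0.115% were called higher and 0.0929% lower, or on BeadChip 5, where 0.0177% were called higher and 0.00884% lower. At an unadjusted limma p under 0.05, 2 probes were higher on BeadChip 3, 11 on BeadChip 4 and 2 on BeadChip 5. Without the 3 exposed DLD-1 arrays of BeadChip 4, 0 of the 12 probes passed in DLD-1 (3 at an unadjusted limma p under 0.05), and 0.712% of all tested probes did. The changes left were then 1.08 for MAFF probe B (adjusted p = 0.0674), 0.97 for OSGIN1 (adjusted p = 0.357), 0.60 for NFE2L2 (adjusted p = 0.340) and 0.36 for MAFG probe A (adjusted p = 0.696).

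Other genes were higher with CSE on both BeadChip 3 and BeadChip 4. HSPA6, an inducible chaperone, rose by 6.97 on BeadChip 3 (adjusted p = 2.87e-05) and 6.77 on BeadChip 4 (adjusted p = 1.66e-07), and differed by 4.08 on BeadChip 5 without passing (adjusted p = 0.528). CYP1A1, a smoke-responsive cytochrome P450, rose by 3.59 on BeadChip 3 (adjusted p = 1.64e-06), 5.43 on BeadChip 4 (adjusted p = 2.74e-13) and 3.37 on BeadChip 5 (adjusted p = 0.000217). BeadChip, exposure time within the stated range and culture cannot be told apart here.

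**Figure D3:**
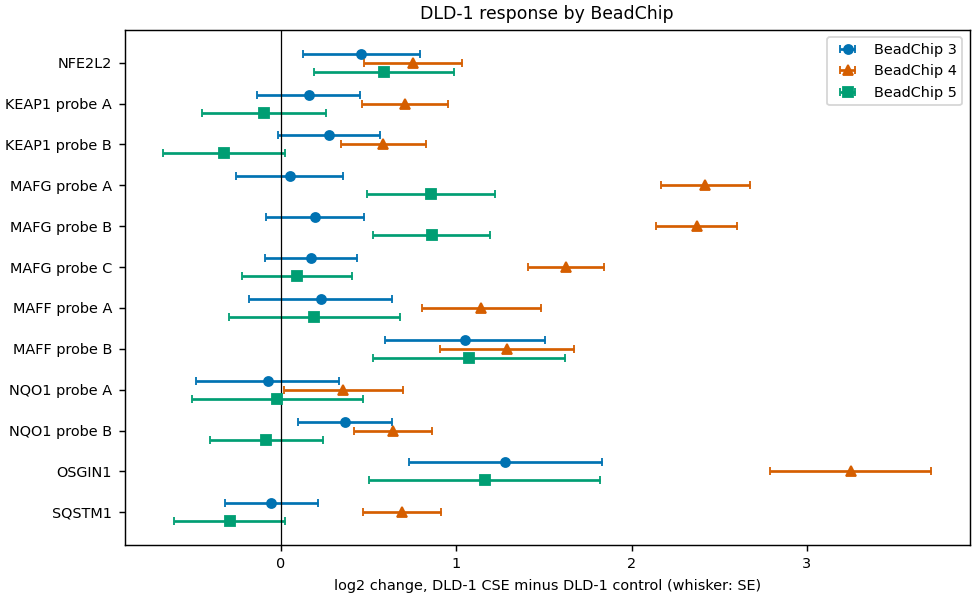
Log2 change of the 12 tested probes in DLD-1 (horizontal axis, exposed minus control, whisker of 1 SE) fitted within BeadChips 3, 4 and 5. For MAFG probes A and B the BeadChip 4 points lie at 2.42 and 2.37 and the BeadChip 3 points at 0.05 and 0.20, while for NFE2L2 and MAFF probe B the whiskers of the 3 BeadChips overlap.

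In Jurkat none of the 12 probes passed in either direction, although 18.1% of all tested probes did (7.4% higher and 10.7% lower). At an unadjusted p under 0.05, limma gave 1 probe higher (KEAP1 probe B, 0.45) and 1 lower (MAFF probe A, -0.48). An exact two-sided permutation test gave 2 as well, KEAP1 probe B (p = 0.0205) and MAFG probe A (-0.36, p = 0.0390). The median over the 12 probes was 0.07, against 0.02 over all.

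NFE2L2 had 8.57, 9.01 and 9.47 (lowest, median, highest) in exposed Jurkat cells and 8.21, 8.72 and 9.89 in control Jurkat cells. The exposed values lay wholly inside the control range (difference 0.13, SE 0.18, adjusted p = 0.694). KEAP1 probe B came nearest to the threshold. It had 6.90, 7.64 and 8.10 in exposed Jurkat cells and 6.63, 7.10 and 7.58 in control Jurkat cells, a difference of 0.45 (SE 0.17, adjusted p = 0.0533), while probe A gave 0.21 (adjusted p = 0.425). Within BeadChips 3, 4 and 5 the KEAP1 probe B difference was 0.59, -0.28 and 0.68.

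The MAFG probe A level was 5.79, 6.23 and 6.70 (lowest, median, highest) in exposed Jurkat cells and 5.91, 6.66 and 7.11 in control Jurkat cells, a difference of -0.36 (adjusted p = 0.396). MAFF probe A differed by -0.48 (adjusted p = 0.152) and MAFF probe B by 0.0017 (adjusted p = 0.997). The exposed and control ranges overlapped on all 3. MAFF probe B was detected on 3 of 6 exposed and 6 of 12 control Jurkat arrays, so its difference rests on levels near background. SQSTM1 differed by 0.27 (SE 0.15, adjusted p = 0.228).

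The targets OSGIN1 and NQO1 were low in Jurkat. OSGIN1 was detected on 4 of 6 exposed and 5 of 12 control arrays and differed by 0.36 (SE 0.37, adjusted p = 0.579). The OKL38 probe of the same gene was detected on 6 of 6 exposed and 11 of 12 control Jurkat arrays. It differed by 0.14 (adjusted p = 0.884). NQO1 probe A had 6.88, 7.26 and 7.52 in exposed Jurkat cells and 6.54, 7.19 and 8.60 in control Jurkat cells, a difference of -0.14 (SE 0.21, adjusted p = 0.718). The upper end of the NQO1 control range came from control replicates 3 (8.60) and 11 (8.54), both above every exposed array. NQO1 probe B was detected on 1 of 6 exposed and 3 of 12 control arrays.

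Epithelial RNA was not evenly low on the Jurkat arrays. The mean log2 level of the 11 tested epithelial markers was between 4.83 and 5.13 on exposed Jurkat arrays and between 4.67 and 5.59 on control Jurkat arrays, against 9.70 to 10.23 on DLD-1 arrays. It was highest on control replicates 5 (5.59) and 7 (5.34), where 7 of the 11 markers were detected and NQO1 probe A was at 7.72 and 7.77. Control replicate 7 is the array whose label fields disagree. Exposed replicate 1 also had 7 of the 11 markers detected, with a marker mean of 5.13 and NQO1 probe A at 7.41. On control replicates 3 and 11, which had the highest NQO1, the marker mean was 4.98 and 4.87. Over the 12 control arrays, the marker mean and NQO1 probe A had r = 0.30, and the marker mean and SQSTM1 had r = 0.58, given as a description. Over the 6 exposed arrays the same r values were 0.69 and -0.28. The part of such RNA in the Jurkat levels was not tested.

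The change with CSE in MAFG, MAFF and OSGIN1 differed between the lines over all arrays. BeadChip 4 held 3 of the 6 exposed DLD-1 arrays and 1 of the 6 exposed Jurkat arrays. Line can therefore not be fully told apart from BeadChip, exposure time or culture in this comparison. In a test of the DLD-1 effect minus the Jurkat effect, 5 of the 12 probes were higher and none lower, against 3.66% higher and 1.95% lower (5.6% in all) among all tested probes. The differences were 1.78 for MAFG probe A (SE 0.37, adjusted p = 0.00286), 1.69 for MAFG probe B (SE 0.38, adjusted p = 0.00634) and 1.80 for OSGIN1 (SE 0.52, adjusted p = 0.0334). For MAFF they were 1.31 on probe B (SE 0.34, adjusted p = 0.0190) and 1.16 on probe A (SE 0.32, adjusted p = 0.0273). In control Jurkat, OSGIN1 was detected on 5 and MAFF probe B on 6 of 12 arrays. The differences of these 2 probes thus rest partly on levels near background. The OKL38 probe, detected on 11 of the 12 control Jurkat arrays, gave a difference of 2.14 (adjusted p = 0.0297). MAFF probe A passed here without passing in either line, its changes being 0.68 in DLD-1 and -0.48 in Jurkat.

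NFE2L2 did not differ detectably in its response between lines (0.53, SE 0.25, adjusted p = 0.226), nor did MAFG probe C (0.71, adjusted p = 0.0980). MAFG probe C was detected on 2 of 6 exposed and 0 of 12 control Jurkat arrays, so its difference rests on Jurkat levels near background. For KEAP1, NQO1 and SQSTM1 the differences ran from -0.16 for KEAP1 probe B to 0.40 for NQO1 probe B. Without the 3 exposed DLD-1 arrays of BeadChip 4, 0 of the 12 probes passed this test (3 at an unadjusted limma p under 0.05), and 223 of all 22612 did. Leaving out single arrays ended the OSGIN1 call in 6 of 36 fits (adjusted p up to 0.0895), the MAFF probe A call in 4 (up to 0.0787) and the MAFF probe B call in 1 (0.0537).

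Without CSE, the lines differed in 8 of the 12 probes, a share near that of all tested probes, and the 8 ran the same way. Control DLD-1 exceeded control Jurkat on 8 of the 12 probes, from 6 genes, and none was lower, in a comparison where 60% of all tested probes passed (27.6% higher and 32.3% lower). NQO1 probe A was at 11.63, 12.19 and 12.41 (lowest, median, highest) in control DLD-1 cells and 6.54, 7.19 and 8.60 in control Jurkat cells. All 12 DLD-1 arrays lay above all 12 Jurkat arrays, by 4.76 on the log2 scale in the mean (SE 0.17, 27.0-fold, adjusted p = 3.15e-26). SQSTM1 was separated as fully, at 11.98, 12.22 and 12.75 in control DLD-1 cells and 8.24, 8.57 and 9.17 in control Jurkat cells, 3.74 apart (SE 0.12, 13.3-fold, adjusted p = 1.79e-27).

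NQO1 probe B was 2.03 higher in control DLD-1 (SE 0.13, adjusted p = 2.36e-17). It was detected on all 12 control DLD-1 arrays but on only 3 of 12 control Jurkat arrays. It thus met the detection filter only through DLD-1, which favoured this call, and its size rests on levels near background. KEAP1 was 1.43 higher in control DLD-1 on probe A (SE 0.13, adjusted p = 9.39e-13) and 1.60 on probe B (SE 0.13, adjusted p = 1.30e-13), with no overlap on either. NFE2L2 was 1.16 higher (SE 0.15, adjusted p = 3.70e-09), and 9 of 12 control DLD-1 arrays lay above all control Jurkat arrays. OSGIN1 was 1.26 higher (SE 0.30, adjusted p = 0.000356) and MAFF probe B 0.78 higher (SE 0.20, adjusted p = 0.000795). OSGIN1 was detected on 5 and the MAFF probe on 6 of the 12 control Jurkat arrays, so both sizes rest on levels near background. The OKL38 probe of OSGIN1, detected on 11 of those 12 arrays, was 1.89 higher in control DLD-1 (adjusted p = 1.02e-05). Within BeadChips 4 and 5 the MAFF probe B call was lost (adjusted p = 0.0513 and 0.116).

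Among the 7 measured genes, MAFG alone had no probe called. Its differences between control DLD-1 and control Jurkat were -0.20 on probe A (SE 0.21, adjusted p = 0.448) and -0.15 on probe B (SE 0.22, adjusted p = 0.592). Within BeadChips 3, 4 and 5 probe A gave 0.04, -0.23 and -0.34, and NQO1 probe A gave 4.96, 4.84 and 4.51. MAFG probe B gave 0.03, 0.05 and -0.54, the last of these called lower in control DLD-1 (adjusted p = 0.0286). The line difference in NQO1 was thus of similar size on each BeadChip.

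A list of 34 other NRF2 target genes, of which 32 were measured, showed the wider response. In DLD-1, 7 were higher with CSE and none lower, where 1.61% of all genes were higher, and the list's median change was 0.23 against -0.01 over all genes. HMOX1, the inducible haem oxygenase, rose by 4.37 (SE 0.29, adjusted p = 6.64e-14). SRXN1, which repairs oxidised peroxiredoxins, rose by 1.71 (SE 0.25, adjusted p = 3.69e-05), GCLM, the modifier subunit of glutamate-cysteine ligase, by 1.77 (SE 0.28, adjusted p = 0.000110), and TRIM16, a ubiquitin ligase, by 0.94 (SE 0.16, adjusted p = 0.000307). The others were CBR3 (1.42), SLC7A11, the cystine importer (1.60), and TXNRD1, a thioredoxin reductase (0.92).

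On BeadChip 3 alone 1 of the 32 genes passed, HMOX1 with 3.71 (adjusted p = 0.000139), where 0.13% of all genes were higher. On BeadChip 4, 11 of the 32 passed against 2.02% of all genes, and on BeadChip 5 1 passed against 0.0225%, HMOX1 with 3.97 (adjusted p = 0.00131). The median changes of the list were 0.01, 0.46 and 0.07. By the model added after the data had been seen, the difference between BeadChips 4 and 3 passed for 6 genes. All 6 were higher on BeadChip 4, against 0.158% of all genes. These 6, named after their values were seen, were GCLM (2.48), SLC7A11 (2.44), AKR1B10 (2.79), CBR3 (1.94), SRXN1 (1.81) and UGDH (1.40). HMOX1 did not pass it (1.24, adjusted p = 0.612).

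In Jurkat 2 of the 32 target genes were higher and 1 lower, where 7.46% of all genes were higher and 11.2% lower. BLVRB, a biliverdin reductase, rose by 0.57 (SE 0.11, adjusted p = 0.000177) and FTL, the ferritin light chain, by 0.34 (SE 0.10, adjusted p = 0.0158). GCLC, the catalytic partner of GCLM, fell by 0.57 (SE 0.19, adjusted p = 0.0326). HMOX1 changed by 0.40 in Jurkat without passing (adjusted p = 0.384), and its effect was 3.97 larger in DLD-1 (adjusted p = 4.63e-08). Altogether 6 of the 32 had a higher effect in DLD-1, against 3.81% of all genes. In the control groups 25 of the 32 target genes were higher in DLD-1 than in Jurkat and 2 lower, where 27.5% and 31.9% of all genes were.

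**Figure D4:**
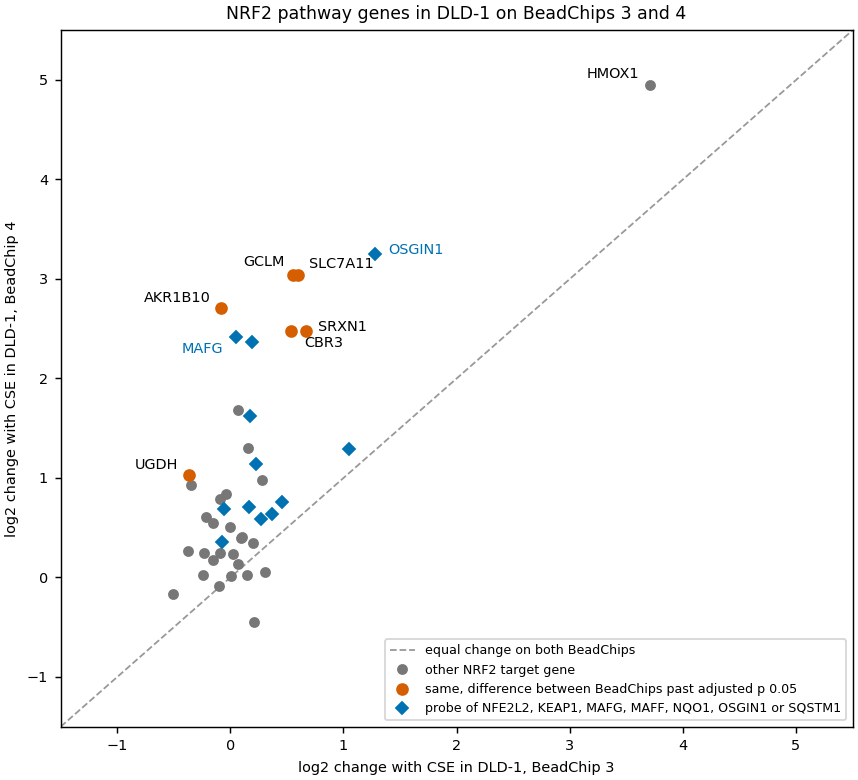
Log2 change with CSE in DLD-1 fitted on BeadChip 3 (horizontal axis) and on BeadChip 4 (vertical axis) for 32 other NRF2 target genes (circles) and the 12 tested probes (diamonds); the dashed line marks equal change. Orange circles are the 6 genes whose difference between BeadChips passed, and HMOX1 stands at 3.71 and 4.95.

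Among 18 regulators and partners of NRF2, 14 were measured. In DLD-1 none was higher and 1 lower with CSE, where 2.28% of all genes were lower. This was SYVN1, a ubiquitin ligase of the endoplasmic reticulum reported to act on NRF2, at -0.57 (SE 0.16, adjusted p = 0.0264). NFE2L1, a relative of NRF2, had a log2 difference of 0.37 (adjusted p = 0.344) in the DLD-1 arrays and of 0.37 in the Jurkat arrays (adjusted p = 0.189). BACH1, the repressor that competes for antioxidant response elements, was detected on at most 1 array by any of its 3 probes, and CUL3 on 1 array, so neither was tested.

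In Jurkat 7 of the 14 regulators were lower and 1 higher, where 11.2% and 7.46% of all genes were, with a median of -0.44 against 0.03 over all genes. BACH2, a relative of BACH1 expressed in lymphocytes, fell by 1.07 (SE 0.18, adjusted p = 3.82e-05), and its effect differed from that in DLD-1 (1.05, DLD-1 minus Jurkat, adjusted p = 0.0132). BTRC, a substrate receptor of another ubiquitin ligase of NRF2, fell by 0.75 (SE 0.14, adjusted p = 9.21e-05) and SYVN1 by 0.56 (adjusted p = 0.00889). DPP3, a peptidase that can bind KEAP1, rose by 0.56 (SE 0.16, adjusted p = 0.0105).

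For the 3 genes with the smallest adjusted p on their brightest tested probe (OSGIN1, MAFG and NFE2L2), the genes with the most similar pattern over the 18 DLD-1 arrays were picked by Pearson's r among 17756 genes, as a description of arrays that share BeadChip and exposure. OSGIN1 was closest to TXNRD1 (r = 0.96), CBR3 (0.93) and SRXN1 (0.93), all 3 on the target list. MAFG probe A was closest to MICB (0.96), PPP2CB (0.95) and SELK (0.94), none of them on that list. MICB encodes a ligand of the NKG2D receptor of natural killer cells, PPP2CB a catalytic subunit of protein phosphatase 2A, and SELK a selenoprotein. Their changes on BeadChips 3 and 4 were 0.11 and 1.59 for MICB, -0.06 and 1.28 for PPP2CB, and 0.34 and 1.14 for SELK. NFE2L2 was closest to KRT34, a keratin (r = 0.91), ZFAND1, a zinc finger protein (0.90), and ADM, the peptide hormone adrenomedullin (0.90). The changes on BeadChips 3 and 4 were 0.80 and 0.82 for KRT34, 0.16 and 0.47 for ZFAND1, and 1.51 and 1.55 for ADM. Over all DLD-1 arrays the ZFAND1 change did not pass (0.42, adjusted p = 0.106).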

How the data were processed

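The deposited bead table holds average bead intensity per probe and a detection p-value per probe and array. Per the file headers it is not normalized. The authors also deposited a normalized intensity table, used only as an alternative. No software for either table is named by the labels or headers. From the bead intensities, background was corrected and arrays were quantile normalized and put on a log2 scale with neqc (offset 16), using limma 3.58.1 and R 4.3.3. The filter kept 22612 of 47323 probes, those detected (p-value under 0.05) on 6 or more of 36 arrays. The 4 group means were fitted by limma over all arrays, which pools the spread of the groups. In exposed DLD-1 cells MAFG probe A and OSGIN1 varied more (SD 1.19 and 1.34) than in controls (0.37 and 0.83), for which this shared estimate makes no allowance. All adjusted p-values are limma's, by Benjamini-Hochberg over all kept probes within a contrast. The fit was first run on simulated arrays with independent values, the spread of the DLD-1 controls and no BeadChip effect. That run cannot show how the p-values behave where arrays share a BeadChip or groups differ in spread. For other genes the brightest kept probe stood for the gene. Changes with CSE within a BeadChip came from a model with a mean for each group on each BeadChip, except where a fit to 1 BeadChip alone is named. This model was added after seeing the data, as was the fit without 3 exposed arrays of BeadChip 4. Comparisons of the control groups within a BeadChip came from separate fits to the arrays of that BeadChip alone. Named genes are all members, the 4 smallest adjusted p-values per further list and line, BACH1, CUL3 and NFE2L1, and the 3 most similar genes of the 3 members with the smallest adjusted p on their brightest probe. Those named outside this rule were chosen after their values were seen. Members and lists were chosen with earlier results of these data known. The number of arrays limits the precision. No array pair held identical values.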

Additional observations from a re-analysis of the deposited data

Results flagged for a closer look

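The response to CSE differed between the lines by a direct test for 5 probes, with the exposed arrays of the lines spread unevenly over the BeadChips. The DLD-1 effect minus the Jurkat effect was 1.78 for MAFG probe A, 1.69 for MAFG probe B, 1.80 for OSGIN1, 1.31 for MAFF probe B and 1.16 for MAFF probe A on the log2 scale. In all 24 combinations of a probe and an exposed group (6 arrays each), 0 held an array far enough from the other 5 to stand out by Dixon's criterion at 95%. That criterion looks for 1 distant array and cannot show several that stand apart together. The 3 BeadChip 4 arrays did so for MAFG probes A and B and OSGIN1 in exposed DLD-1. None of the 5 differences passed without those 3 arrays.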

How the results depend on the processing

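Of the 12 probes, 6 passed in DLD-1 (838 of all tested probes). The counts, with fits within a BeadChip made on its arrays alone, were 3 of 7 genes with the brightest probe per gene, 0 (33 of all) within BeadChip 3, 4 (779) within BeadChip 4, 0 (1) within BeadChip 5 and 0 (161) without the exposed DLD-1 arrays of BeadChip 4. In Jurkat 0 passed (4096 of all). It was 1 with median scaling (MAFF probe A, -0.71), 1 with detection p under 0.01 (KEAP1 probe B) and 1 without the exposed DLD-1 arrays of BeadChip 4, and 1158, 576 and 655 of all probes passed within BeadChips 3, 4 and 5. For the difference between lines 5 passed (1267 of all), against 3 with no filter, 3 with the brightest probe per gene, 0 (7), 3 (213) and 0 (0) within BeadChips 3, 4 and 5, and 0 (223) without the exposed DLD-1 arrays of BeadChip 4. In controls 8 passed (13556 of all), and 5 with the brightest probe per gene; within BeadChip 5, 7 were higher and MAFG probe B was lower (-0.54). Fits within a BeadChip hold fewer arrays, and counts per gene fewer probes; other causes were not tested. Leaving out each array in turn gave 4 to 7 (353 to 1107 of all) in DLD-1, 0 to 1 (3128 to 4153) in Jurkat, 2 to 6 (769 to 1512) for the difference and 8 to 8 (13386 to 13589) in controls. No probe reversed a called direction in any alternative run. With BeadChip as a block, each of the 12 probes kept its side of the threshold in all 4 comparisons. No paired analysis was possible because the labels give no replicate numbers shared between groups.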
